A study of Mus musculus with 30 samples.

Results

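The mark H3K4me1 was compared between 1 h and 6 h of induced E47-ER activity in mouse E2A-/- pre-pro-B cells. The members were all regions of the 2 deposited H3K4me1 lists of these cells, 18155 regions at 1 h and 11169 at 6 h, out of 323966 regions in the 24 chromatin immunoprecipitation sequencing (ChIP-seq) lists of the study, which holds 30 samples in all. They were sorted into regions listed at 6 h only, at both times, and at 1 h only, and each class was set against the E2A lists of the same times. The study mapped transcription factors and histone marks in cells halted at early steps of B cell development.

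Both H3K4me1 libraries came from E2A-/- pre-pro-B cells grown on S17 stromal cells with IL7, SCF and FLT3 ligand. A retrovirus gave these cells E47-ER, a full-length E2A protein joined to the ligand-binding part of the estrogen receptor, along with the surface tag hCD25. After 21 h of culture, 1 µM tamoxifen was added for 1 h or for 6 h, and hCD25-bearing cells were pulled out with magnetic beads. The E2A lists came from cells treated in the same way, with 26792 peaks at 1 h and 15386 at 6 h. A further list of 17146 H3K4me1 regions came from E2A-/- cells that carried bHLH-ER, an E2A form without its transactivation domains, for 6 h. No list of E2A-/- cells without such a protein, or of E47-ER cells before tamoxifen, was analysed here. Each condition had 1 library, so time and library cannot be told apart, and no difference between lists carries a replicate check or a p-value.

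E2A proteins such as E47 are basic helix-loop-helix factors that bind E-box motifs and are needed for entry into the B lineage. Fused to the estrogen receptor domain, E47 stays inactive until tamoxifen lets it act in the nucleus, so that early and later effects can be separated in time. H3K4me1, a single methyl group on lysine 4 of histone H3, lies on enhancers, both poised and active, and on the flanks of promoters. It is laid down mainly by the MLL3 and MLL4 methyltransferases, which transcription factors help to recruit.

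The H3K4me1 list was shorter at 6 h, and close to 1 in 2 of its regions were absent from the 1 h list. Of the 11169 regions at 6 h, 5070 (45.4%) shared no base with a 1 h region and 6099 (54.6%) overlapped 1. The 1 h list held 12056 regions (66.4% of it) with no counterpart at 6 h. Over the 23225 regions of either list, 21.8% were at 6 h only and 51.9% at 1 h only. Every region was 1000 bp wide, and its height is the authors' score, a whole number whose scaling was not given. Scores had a median of 20 at 1 h (range 12 to 384) and of 17 at 6 h (range 12 to 132). Read totals were not given either, so list length and sequencing depth cannot be told apart.

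Regions listed at a single time were not shifted copies of a region of the other time. The nearest 1 h region to a 6 h only region lay at a median distance of 16707.5 bp, and for only 318 of the 5070 was it within 2500 bp. For 1 h only regions the median distance to the 6 h list was 30814.5 bp. Within shared pairs the centres lay a median of 168 bp apart. The scores of the 6099 shared regions at the 2 times had a Spearman correlation of 0.58 across regions, which are not independent replicates.

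Absence at the other time went with a low score in the 1 h list more than in the 6 h list. The median score was 16 for 6 h only regions and 17 for the shared regions at 6 h, and the 90th percentile was 26 in both classes. Among 6 h regions scored 12 to 13, 52.3% were absent at 1 h, and among those scored 31 to 132 the share was 45.7%. In the 1 h list, 87.2% of the regions scored 12 to 13 were absent at 6 h, against 49.3% of those scored 31 to 384.

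E2A peaks of 6 h were most frequent in the H3K4me1 regions seen at 6 h only and least frequent in those seen at 1 h only. An E2A peak of 6 h overlapped 733 of 5070 6 h only regions (14.5%, 95% Wilson interval 13.5 to 15.5%). It overlapped 702 of 6099 shared regions (11.5%, 10.7 to 12.3%) and 793 of 12056 1 h only regions (6.58%, 6.15 to 7.03%). The intervals of the 3 classes did not overlap, although they cover counting over regions only. The 6 h only share was higher than the 1 h only share on 20 of 20 chromosomes. Cut to 11169 regions each, the lists gave 13.8%, 11.6% and 9.05%.

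The E2A list of 1 h separated the classes in another way. Its peaks lay in 24.2% of 6 h only regions (23.0 to 25.4%), in 24.1% of shared regions (23.1 to 25.2%) and in 13.4% of 1 h only regions (12.8 to 14.0%). Regions at 6 h only and shared regions thus did not differ beyond counting, and 1 h only regions stood below both. With the 1 h E2A list cut to the 15386 highest peaks, the length of the 6 h list, these shares were 14.0%, 14.5% and 7.99%. The 6 h list gave 14.5%, 11.5% and 6.58%. At equal length the 1 h peaks thus still did not place 6 h only regions above shared regions. Among 6 h only regions with an E2A peak of 6 h, 641 of 733 (87.4%) also held an E2A peak of 1 h. Over the whole E2A list of 6 h, 80.7% of the peaks, which are 200 bp wide, overlapped a peak of 1 h. The regions offer a wider window, so these 2 shares are not like for like. Of the 793 1 h only regions with an E2A peak of 6 h, 711 also held an E2A peak of 1 h. A high share was thus not particular to 6 h only regions.

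**Figure D1:**
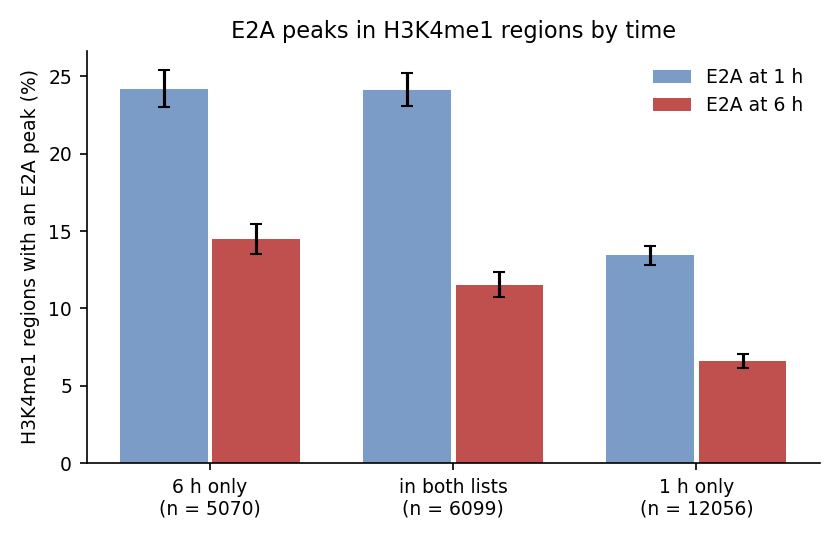
Share of H3K4me1 regions (%) that overlap an E2A peak of 1 h (blue) or of 6 h (red), for regions at 6 h only, in both lists and at 1 h only; bars are shares and error bars 95% Wilson intervals over regions, from 1 library per list. The 6 h E2A share is 14.5%, 11.5% and 6.58% from left to right, while the 1 h E2A share is near 24% in the first 2 classes and 13.4% in the last.

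E2A peaks sat at the centres of the H3K4me1 regions in all 3 classes. Within 500 bp of the centre of a 6 h only region there were 3.17 E2A peaks of 6 h per 100 regions and 250 bp, against 0.237 beyond 3000 bp, a ratio of 13.4. Around 1 h only regions the same densities were 1.50 and 0.277, a ratio of 5.43. Shared regions had 2.57 near the centre and 0.154 beyond 3000 bp. The lower E2A share of 1 h only regions was therefore a lower density at the centre, since the flanks of 6 h only and 1 h only regions had similar densities. Most bound regions held a single E2A peak, and 10 of the 733 bound 6 h only regions held 2 or more. The E2A peaks in all 3 classes had a median 6 h score of 9, which is also the median of the whole E2A list.

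**Figure D2:**
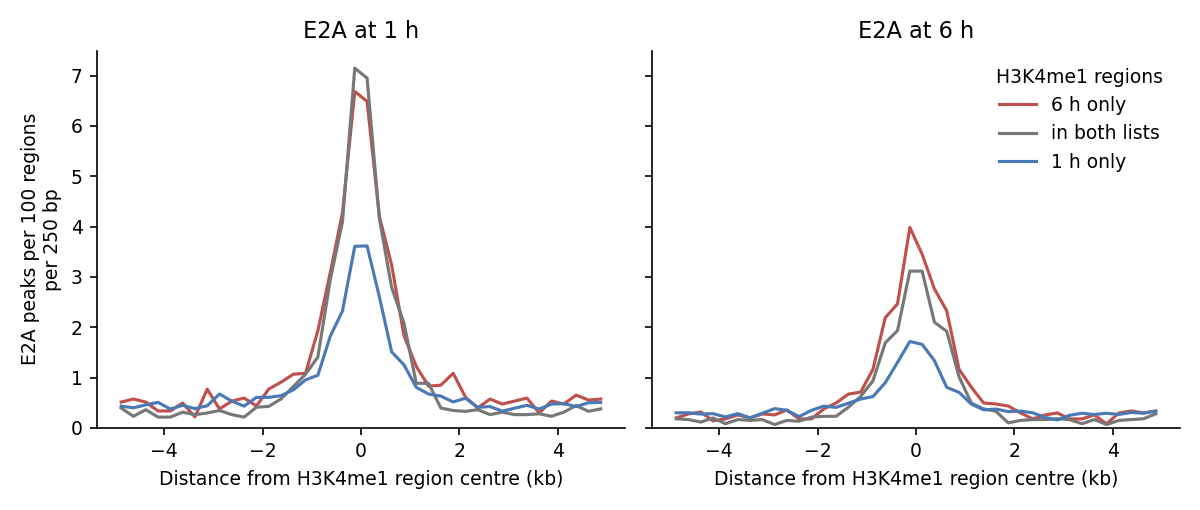
E2A peaks per 100 H3K4me1 regions and 250 bp (y axis) by distance of the peak centre from the region centre in kb (x axis), for E2A peaks of 1 h (left) and 6 h (right). In each panel the 3 lines are low beyond 2 kb, with the regions in both lists (grey) the lowest beyond 3 kb, and at the centre the 1 h only regions (blue) are the lowest.

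E2A sites were next divided by their own time course, using the E2A lists alone. Of the 26792 E2A peaks at 1 h, 14383 had no counterpart at 6 h. Of the 15386 peaks at 6 h, 12409 overlapped a 1 h peak and 2977 did not. Sites bound at both times lay in 12.5% of 6 h only H3K4me1 regions, in 10.3% of shared regions and in 5.77% of 1 h only regions. Sites bound at 6 h only lay in 2.03%, 1.30% and 0.854% of the same classes. Sites bound at 1 h only were most frequent in shared regions (14.0%), followed by 6 h only (11.8%) and 1 h only regions (7.84%).

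Seen from the E2A sites, most binding was outside the H3K4me1 lists, and the numbers of 6 h only and 1 h only regions at these sites were similar. Of the 15386 E2A peaks at 6 h, 13014 (84.6%) overlapped no H3K4me1 region of either time. An H3K4me1 region of 6 h but not 1 h lay at 817 peaks (5.31%), a region of 1 h but not 6 h at 915 (5.95%), and regions of both times at 640 (4.16%). With both H3K4me1 lists cut to 11169 regions the order turned, with 940 peaks (6.11%) at 6 h only and 675 (4.39%) at 1 h only regions. Which class held more E2A peaks thus depended on list length, while the share of each class with E2A at 6 h kept its order. Of the 2977 E2A peaks at 6 h only, 110 (3.69%, 3.07 to 4.43%) had H3K4me1 at 6 h only and 120 (4.03%) had it at 1 h only. Of the 12409 peaks bound at both times, 707 (5.70%, 5.30 to 6.12%) had H3K4me1 at 6 h only. No H3K4me1 region of either time lay at 89.8% of the former and 83.3% of the latter, whose median E2A scores were 7 and 10. The share of E2A peaks of 6 h with H3K4me1 at 6 h only was 5.08% among peaks scored 6 to 7 and 4.43% among those scored 20 to 107.

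In both classes of the 6 h list, E2A was more frequent at higher H3K4me1 scores. Among regions scored 12 to 13, 9.48% of those at 6 h only held an E2A peak of 6 h, against 4.95% of the shared ones. At scores of 17 to 20 the shares were 15.5% and 10.9%, and at 21 to 30 they were 19.7% and 18.7%. In the 510 regions scored 31 to 132 the order turned, with 28.8% at 6 h only and 31.8% in shared regions. The difference between 6 h only and shared regions was thus found at low and middle scores.

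**Figure D3:**
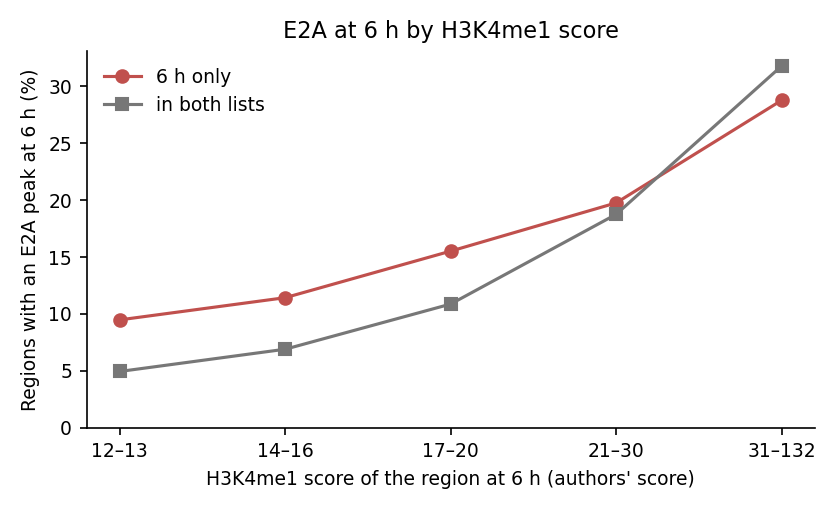
Share of H3K4me1 regions of the 6 h list with an E2A peak of 6 h (%, y axis) in 5 ranges of the authors' score (x axis), for regions at 6 h only (red) and in both lists (grey). Both lines climb, from 9.48% and 4.95% in the lowest range to 28.8% and 31.8% in the highest, where they cross.

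The bHLH-ER list, taken at the same 6 h with a protein that lacks the transactivation domains, was set beside the classes. It overlapped 69.4% of shared regions (68.2 to 70.5%), 42.2% of 1 h only regions (41.4 to 43.1%) and 29.6% of 6 h only regions (28.4 to 30.9%). More of the 1 h only regions than of the 6 h only regions were thus found in bHLH-ER cells. Of the 733 6 h only regions with E2A at 6 h, 23.3% were in the bHLH-ER list, and of the 4337 without it, 30.7%.

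The 3 H3K4me1 lists were then merged into 29502 regions, each sorted by the lists that held it. Median widths were 1000 bp for regions of 1 list, 1152 to 1167 bp for 2 lists and 1283 bp for all 3. Classes of several lists thus had a wider window for overlap, while the 3 classes of a single list had the same width. E2A peaks of 6 h lay in 6.48% of the regions of the 1 h E47-ER list alone, in 6.90% of those of the bHLH-ER list alone and in 7.66% of those in these 2 lists. Every class that included the 6 h E47-ER list was higher. The share was 15.8% in the 6 h E47-ER list alone, 15.6% in both E47-ER lists, 13.1% in the 6 h E47-ER and bHLH-ER lists, and 13.4% in all 3. The 1 h E47-ER list alone and the bHLH-ER list alone therefore had similar E2A shares, and their intervals overlapped.

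**Figure D4:**
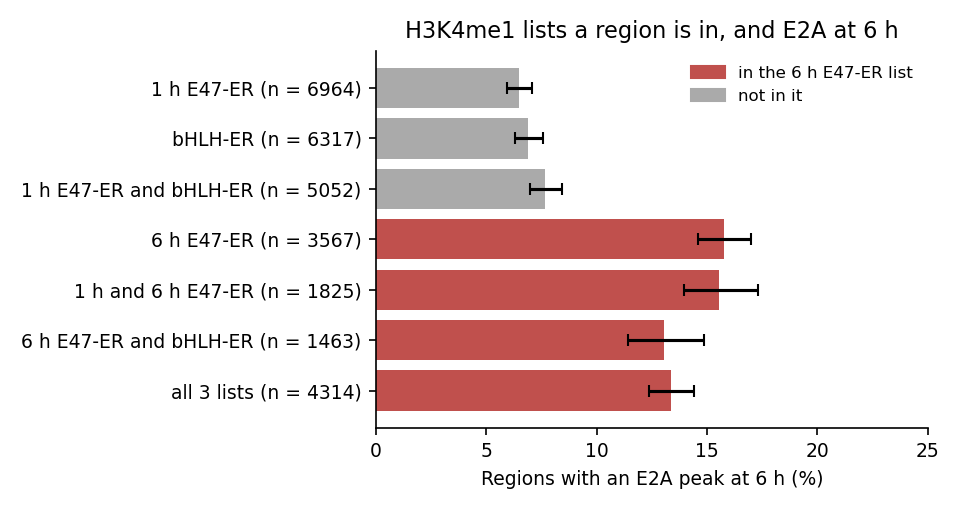
Share of merged H3K4me1 regions with an E2A peak of 6 h (%, x axis) by the combination of E2A-/- lists that held the region (y axis), with 95% Wilson intervals over regions. The 4 classes in the 6 h E47-ER list (red) lie between 13.1% and 15.8%, and the 3 classes outside it (grey) between 6.48% and 7.66%.

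A related measure came from the 6099 shared regions, whose presence in the lists did not differ. They were ranked by score within each time and divided into 5 groups of about equal size by the change in rank from 1 h to 6 h. Overlaps were counted here over the joint span of the 1 h and 6 h regions of a pair. On this span 800 of the 6099 held an E2A peak of 6 h, against 702 on the 6 h region alone. Median scores went from 27 to 14 in the group that lost most rank and from 18 to 19 in the group that gained most. E2A peaks of 6 h lay in 6.15% of the first of these groups (4.93 to 7.64%) and in 22.4% of the last (20.1 to 24.8%). For E2A peaks of 1 h the shares were 16.6% and 36.5%. The bHLH-ER list ran the other way, at 75.7% and 65.9%, and H3K4me1 of RAG1-/- cells differed little, at 30.6% and 28.2%. Over all shared regions, those with an E2A peak of 6 h had median scores of 25 at 1 h and 21 at 6 h, and those without had 24 and 17. The change in rank includes the 6 h score, with which the E2A share also climbed, so the groups differ in score as well as in its change.

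**Figure D5:**
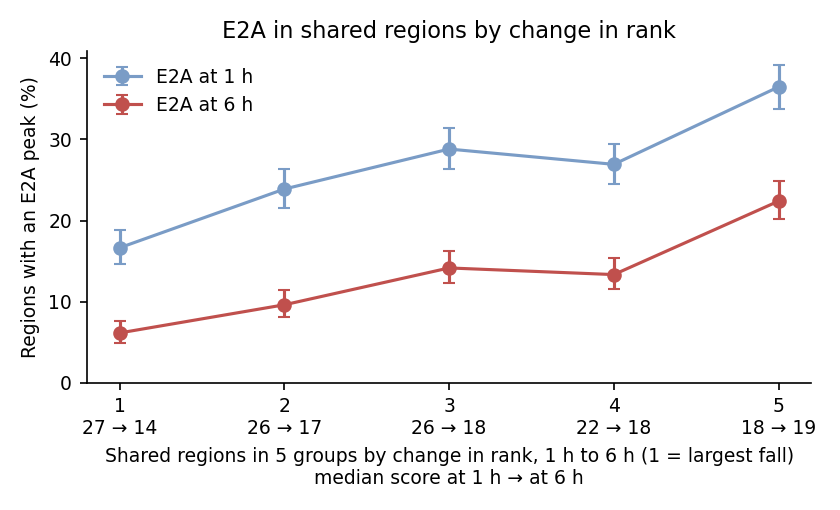
Share of shared H3K4me1 regions with an E2A peak (%, y axis) in 5 groups by the change in score rank from 1 h to 6 h (x axis, with each group's median scores), for E2A at 1 h (blue) and 6 h (red); error bars are 95% Wilson intervals over regions. The 6 h E2A share is 6.15% in the first group and 22.4% in the last, with 14.2% and 13.3% in groups 3 and 4. Peaks are counted over the joint span of the 1 h and 6 h regions of a pair.

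The shared regions with the greatest rise in rank and the 5 with the greatest fall are described by their nearest gene. Beside Arap1, which encodes a GTPase-activating protein, the score was 13 at 1 h and 27 at 6 h, with E2A at both times. A region near the neurotensin receptor gene Ntsr1 went from 15 to 30 and also held E2A at both times. Those near Hcn4, a pacemaker channel gene (14 to 28), and Tpcn2, a lysosomal channel gene (12 to 24), held no E2A peak. In the other direction stood regions nearest to Rap1b, a small GTPase gene (38 to 12), 4930524J08Rik (38 to 12), the autophagy gene Atg16l1 (37 to 12), the vitamin D receptor gene Vdr (47 to 13) and the kinase-like gene Pxk (36 to 12). None of these 5 held an E2A peak of 6 h, and all 5 were in the bHLH-ER list. These counts are small, and the shares were 6.15% and 75.7% over the whole group that lost most rank. The region nearest to 4930524J08Rik held an E2A peak of 1 h.

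The classes were next set against the lists of other cells. E2A peaks of RAG1-/- pro-B cells, which carry E2A of their own, lay in 8.05% of 6 h only, 9.12% of shared and 5.34% of 1 h only regions. For E2A of EBF-/- pre-pro-B cells the shares were 3.04%, 3.74% and 1.92%. E2A peaks in A12, a T cell line that lacks E2A and was given E47-ER for 6 h, lay in 11.8%, 9.05% and 5.89%. The order of the E47-ER peaks in A12 cells was thus that of the E2A peaks of 6 h in E2A-/- cells. CTCF, an insulator protein mapped in RAG1-/- cells, differed less, at 7.51%, 7.90% and 8.42%. Peaks of EBF1 and FOXO1 in RAG1-/- cells were rare in every class, between 0.506% and 0.853%, and peaks of the mock immunoprecipitation rarer still, between 0.0415% and 0.0984%.

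H3K4me1 of later or other genotypes was above all a feature of shared regions. It was listed in RAG1-/- cells at 24.0% of 6 h only, 31.3% of shared and 21.0% of 1 h only regions. In EBF-/- cells the shares were 14.0%, 32.5% and 13.6%. Within 6 h only regions, those with E2A at 6 h overlapped H3K4me1 of RAG1-/- cells less (21.3%, 18.5 to 24.4%) than those without (24.5%, 23.2 to 25.8%), but these intervals overlapped. The promoter mark H3K4me3 of RAG1-/- cells lay at 4.91% of the 6 h only regions with E2A (3.57 to 6.72%) and at 9.25% of those without (8.42 to 10.1%). These intervals did not overlap. Of the bound regions, 19.5% held E2A in RAG1-/- cells, against 6.11% of the unbound regions.

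Genes were placed by their array probes, whose positions are given on mouse build mm8, the build of the lists. A gene was counted as beside a region if a probe lay within 50 kb of it, which names neighbours and not targets. Of 19609 genes with a placed probe, 35.7% had a 6 h only region beside them, 6.77% had a 6 h only region with E2A at 6 h, 58.5% had a 1 h only region and 14.2% had a 1 h only region with E2A at 1 h. These are the shares to read the gene groups against. Over the 10 groups the counts are small, and several genes share a region.

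Of 16 transcription factor genes of the B lineage, 4 had a 6 h only region, 1 of them with E2A at 6 h, and 10 had a 1 h only region, near the share of all genes. Ebf1, an activator of the B cell program, had no region of either list within 50 kb of its probes. Pax5, the B lineage commitment factor, had 1 h only regions at chr4:44586248-44587247 (score 26) and chr4:44635361-44636360 (score 19), both without E2A at either time. Foxo1 had a 1 h only region at chr3:52419223-52420222, with a score of 13, an E2A peak of 1 h and an E2A peak of RAG1-/- cells. Tcf12, which encodes the E protein HEB, was the member with a 6 h only region bound by E2A at 6 h but not at 1 h (chr9:71774572-71775571, score 15). Tcf3, the E2A gene itself, had a shared region (scores 29 and 21) and a 1 h only region (score 15), all without E2A.

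Genes of the pre-B receptor and of B cell signalling had no 6 h only region with E2A at 6 h, which is near the 6.77% of all genes for so small a group. Of these 16 genes, 5 had a 6 h only region and 11 a 1 h only region. Of the 6 distinct 6 h only regions, 3 held an E2A peak of 1 h, and these same 3 held an E2A peak of RAG1-/- cells. Among them were regions beside Cd22, an inhibitory receptor gene (chr7:30596293-30597292, score 25), and Cd72, a co-receptor gene (chr4:43503013-43504012, score 28). The Cd72 region also held a peak of EBF1 in RAG1-/- cells. Igll1 and Vpreb1, which encode the surrogate light chain, are neighbours and had the same 1 h only regions, at chr16:16769749-16770748 (score 18) and chr16:16816309-16817308 (score 23), without E2A.

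V(D)J recombination genes had no 6 h only region with E2A at 6 h among 11, again near the 6.77% of all genes. Rag1 and Rag2, neighbours that encode the recombinase, shared a 6 h only region at chr2:101449768-101450767 with a score of 15. It held an E2A peak of 1 h and overlapped H3K4me1 and E2A of RAG1-/- cells. Dntt, which encodes terminal transferase, had a 1 h only region with E2A at both times (chr19:41075325-41076324, score 14). Hmgb1, a chromatin protein gene, had 3 regions at 6 h only, the highest with a score of 28.

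Notch and E protein pathway genes included the 6 h only region with the highest score among the B-lineage, signalling and pathway genes. It lay 43.5 kb from the Notch3 probe, at chr17:31893184-31894183, with a score of 38. It held E2A peaks of 1 h and 6 h and of RAG1-/- and EBF-/- cells, a FOXO1 peak of RAG1-/- cells, and it was also in the bHLH-ER list. Notch3 encodes a Notch receptor. In this group of 15, 7 genes had a 6 h only region, and Notch3 was the 1 with E2A at 6 h. Id2, which encodes an inhibitor of E proteins, had 6 h only regions with scores of 28 and 18 and 5 regions at 1 h only, none with E2A of either time. Gfi1, a repressor gene, had 3 regions at 6 h only (scores 23, 22 and 18), all in the bHLH-ER list and without E2A.

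Cytokine receptor and IL-7 signalling genes had 8 of 12 members beside a 6 h only region and 2 beside 1 with E2A at 6 h. Over all genes these shares were 35.7% and 6.77%. The region beside Jak3, a kinase gene of the common gamma chain pathway (chr8:74604165-74605164, score 28), held E2A at both times. So did the region beside Cish, a feedback inhibitor gene of STAT5 signalling (chr9:107136934-107137933, score 30). Neither was in the bHLH-ER list. The IL-7 receptor gene Il7r had a shared region with scores of 13 at 1 h and 15 at 6 h, bound by E2A at both times and by FOXO1 in RAG1-/- cells. None of the 12 progenitor genes had a 6 h only region with E2A at 6 h, although 7 had a 6 h only region. For Flt3, a growth factor receptor gene, a 6 h only region (score 23) lay next to a 1 h only region with E2A at both times (score 19).

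Genes of other lineages and housekeeping genes had such regions too. Cd3d, Cd3e and Cd3g, T cell receptor signalling genes, shared a 6 h only region with E2A at both times (chr9:44730850-44731849, score 15), so that 3 of 12 T-lineage genes rest on 1 region. Tbx21, a regulator gene of NK and T cells, had a 6 h only region with E2A at 6 h only (score 14). Itgam, a myeloid integrin gene, had 1 with E2A at both times (chr7:127906218-127907217, score 33). Of 12 housekeeping and ribosomal genes, 3 had a 6 h only region with E2A at 6 h, among them the ribosomal protein genes Rpl3 and Rpl13a. Beside 6.77% of all genes, counts this small do not set the groups apart.

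The highest-scoring 6 h only regions with E2A at 6 h are described by their nearest gene. The first lay 55.1 kb from Copb1, a coat protein gene (score 52), the next overlapped the probe of Ago2, an RNA silencing gene (48), and the third was 2.55 kb from the signalling adaptor gene Traf4 (47). Rpl3 (46), the nucleotide receptor gene P2ry6 (45), Zmiz2 (43), Ubald1 (43), Tmem247 (43), the apoptosis gene Bid (42) and Chid1 (42) followed. All 10 also held an E2A peak of 1 h, and 3 were in the bHLH-ER list, near the 87.4% and 23.3% of all 733 such regions. Among 1 h only regions with E2A at 1 h, the highest were 2 regions nearest to Sfi1, a centrosome gene (scores 384 and 151), then Slc43a2, an amino acid transporter gene (85), and Ifitm10 (78). Cryba1 (67), the hedgehog pathway gene Sufu (66), the ephrin receptor gene Epha2 (64), Rab43 (64), Cd276 (64) and Aldh3b1 (63) made up the 10, of which 7 held E2A at 6 h as well. Over all 1618 such regions this share was 43.9%.

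Expression had been measured in untransduced cells, with 2 samples each of E2A-/- pre-pro-B, EBF-/- pre-pro-B and RAG1-/- pro-B cells. These arrays say nothing about the hours after tamoxifen, and served to check the cells and the neighbouring genes. In E2A-/- cells all 4 progenitor markers, Flt3, Kit, Il7r and Hoxa9, were well above background, with median log2 intensities of 11.66 and 11.82 in the 2 samples. All 4 myeloid markers were above background too, with medians of 13.54 and 13.75. B cell markers were unequal: 7 of 7 were above background in replicate 1 (median 10.33) and 2 of 7 in replicate 2 (median 5.39), against 14.22 and 14.01 in RAG1-/- cells. E2A-/- replicate 1 shared its array with RAG1-/- replicate 1, each in its own dye channel, and the part of this in the B cell values was not tested. The part of other cell types in the H3K4me1 lists was not tested.

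The genes beside E2A-bound 6 h only regions were called changed about as often as all genes. Over 12274 genes tested, limma with Benjamini-Hochberg adjustment called 13.2% higher and 12.1% lower in EBF-/- than in E2A-/- cells at an adjusted p of 0.05. Of the 1015 tested genes beside such regions, 154 (15.2%) were higher and 116 (11.4%) lower. Of the 2167 beside 1 h only regions with E2A at 1 h, 14.4% were higher and 10.9% lower. In RAG1-/- against the same E2A-/- samples, 23.4% of all genes were higher and 23.7% lower, and 20.2% and 25.2% of the 1015 genes. These shares lie near those of all genes and are no result about the regions. They also rest on few samples: without 1 EBF-/- or E2A-/- sample, far fewer of the 1015 genes were called, and far fewer of all genes. Without the filter on dim probes the shares lay further apart, with 112 of 1323 genes (8.47%) higher, against 5.57% of all genes. The filter kept 76.5% of the genes beside such regions and 62.3% of all placed genes, so the unfiltered sets differ in dim genes. The part of this in the gap was not tested.

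Single neighbours of regions of either time differed between the genotypes. In EBF-/- minus E2A-/- cells, Epha2 (-3.79 ± 0.23 SE, limma adjusted p = 0.00259) and Aldh3b1 (-2.61 ± 0.12, limma adjusted p = 0.00193) passed beside 1 h only regions. Bid (-0.79 ± 0.08, limma adjusted p = 0.00674), Ubald1 (1.15 ± 0.15, limma adjusted p = 0.0108) and P2ry6 passed beside 6 h only regions. The other nearest genes of the highest-scoring regions did not pass or were not tested. P2ry6 stood at normalized log2 intensities of 10.29 and 10.54 in E2A-/- and of 5.80 and 5.63 in EBF-/- samples, a difference of -4.70 ± 0.32 (SE, n = 2 per group; limma adjusted p = 0.00312). It stayed past the threshold without any 1 of the 6 samples. Notch3 stood at 4.71 and 3.24 in E2A-/- and at 7.05 and 6.84 in EBF-/- samples (2.97 ± 0.56, limma adjusted p = 0.0252). Tbx21 was at 4.37 and 3.83 in E2A-/- and at 6.83 and 7.16 in EBF-/- samples (2.90 ± 0.47, limma adjusted p = 0.0176). In each of these 3 genes the E2A-/- and EBF-/- samples did not overlap. Notch3 and Tbx21 were well above background in 1 of 2 E2A-/- samples, and P2ry6 in 1 of 2 EBF-/- samples, so the size of each of the 3 differences rests partly on a dim sample. Both calls were lost without EBF-/- replicate 1 (limma adjusted p = 0.154 and 0.125), EBF-/- replicate 2 (0.195 and 0.183) or E2A-/- replicate 2 (0.0560 and 0.0505). The Notch3 call was also lost without the filter on dim probes (limma adjusted p = 0.0599). Jak3 and Cish did not pass. Jak3 had 10.09 and 10.24 in E2A-/- and 10.91 and 11.17 in EBF-/- samples (limma adjusted p = 0.0594), and Cish 12.80 and 12.88 against 12.13 and 12.41 (limma adjusted p = 0.104). Both passed without RAG1-/- replicate 1 (0.00264 and 0.00659) or 2 (0.00277 and 0.00662), and with the replicate number as a block (0.00376 and 0.00867).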

How the data were processed

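Peak lists are HOMER output on build mm8, per the submitters' processing notes, 1 list per library and fixed in width; their score column is used as deposited, with its scaling and the read totals not given in the sources used here. Regions sharing at least 1 bp were counted as overlapping, and E2A peaks were assigned in the same way, with 95% Wilson intervals over regions. The overlap code was tested on simulated intervals (Python 3.11.15, pandas 2.3.3, scipy 1.17.1).

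The deposited array intensity values are processed signals that the scanner software wrote (Agilent Feature Extraction, version 9.5.3.1). Each sample was read from its own dye channel, put on a log2 scale and quantile normalized; probes well above background in both samples of a group were kept, and the brightest probe stood for its gene. Of 41174 probes, 23374 were named by accession, 6733 by symbol and 2919 by synonym through RefSeq genes of GRCm38.p6 (names only). limma 3.58.1 (R 4.3.3) was fitted to all 6 samples with group and dye, a trended prior and an adjusted p of 0.05. In simulated data for EBF-/- against E2A-/- (12274 genes) it called 14 of 67, 42 of 67 and 49 of 66 genes changed by 1, 2 and 4 on the log2 scale, with 4 false calls. Labels do not say whether replicates were separate cultures, so p-values may measure technical spread. Replicate numbers were not treated as pairs: same-numbered samples deviated together with correlations of 0.16, -0.40 and 0.0095.

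Named genes are those of 10 lists with a region of a single time beside them, the nearest genes to the 10 highest-scoring E2A-bound regions of each time and to the 5 shared regions with the greatest rise or fall in rank, and Tcf3, Ebf1, Foxo1, Pax5 and Igll1. The comparison, lists and rules were chosen with earlier results of these data known. A few genes that these rules name are not reported here.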

Additional observations from a re-analysis of the deposited data

How the results depend on the processing

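The E2A share of 6 h kept its order (6 h only, shared, 1 h only) under every alternative run on the regions. Within the highest score range of each list, however, shared regions and regions of a single time changed places. Requiring 50% coverage for a shared region gave 14.1% of 1 h only regions with E2A at 1 h. Cutting both lists to 11169 regions gave 6299 regions at 1 h only, 18.1% of them with E2A at 1 h. In the upper part of each list by score there were 2886 regions at 6 h only and 6379 at 1 h only. There E2A of 6 h lay in 19.2% of 6 h only, 15.5% of shared and 9.45% of 1 h only regions. For E2A of 1 h the shares were 31.8%, 31.6% and 19.3%. Of the E2A sites of 6 h only, 2.38% then had H3K4me1 at 6 h only. Counting E2A peaks of 6 h within 1 kb gave 21.1% (6 h only), 16.9% (shared) and 10.4% (1 h only). For E2A of 1 h this gave 33.7%, 32.2% and 19.3%. With E2A lists cut to the same number, 5.37% of E2A sites of 6 h only had H3K4me1 at 6 h only. Merging regions within 1 kb changed nothing, since none lay so close.

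Of genes beside E2A-bound 6 h only regions, 75 were higher and 52 lower of 477 in EBF-/- cells at 20 kb, and 259 and 200 of 1803 at 100 kb (15.7% and 14.4% higher, against 13.2% of all genes). Without the filter on dim probes 112 were higher and 62 lower of 1323 (8.47% higher, against 5.57% of all genes). Median centring gave 82 higher (8.08%, against 7.85%) and 122 lower of 1015, and 36.2% of calls over all genes were then higher, against 52.1%. The fit with a replicate block gave 239 higher (23.5%, against 21.8% of all genes) and 191 lower (18.8%, against 20.3%), although the numbers do not pair the samples. A crossed pairing, added after seeing the data, gave 116 higher (11.4%, against 10.2%) and 82 lower (8.08%, against 8.47%). Leaving out each sample gave 21 to 246 higher and 17 to 201 lower, lowest without EBF-/- replicate 2 and highest without RAG1-/- replicate 1 or 2. No setting can separate time from library, depth is unknown, and probes stand in for genes.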
